A study of Rattus norvegicus with 12 samples.

Results

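Growth factor receptors of the hepatocyte surface and the liver hormone gene Fgf21 were compared between obese female and obese male rats of the ZSF1 strain. The members were chosen by name: the EGF receptor family genes Egfr, Erbb2 and Erbb3, the receptor inhibitor gene Errfi1, the HGF receptor gene Met, the FGF receptor gene Fgfr4, its co-receptor gene Klb, and Fgf21. Of these 8 names, 7 had a row among the 16478 genes of the count files. Klb had none and was not analysed here. Each of the 12 animals gave 1 liver library: 6 females and 6 males, all adult, 16 weeks old, labelled obese and kept without treatment on free access to chow. Obese animals of this hybrid strain lack a working leptin receptor, having inherited a mutant copy from each parent strain, so both sexes share that defect, and no lean animals enter the comparison. Levels are CPM (counts per 1 M counts of the library, scaled by TMM factors), every log2 fold change puts females over males (SE, its standard error), and a gene is called at an adjusted p under 0.05 in edgeR's quasi-likelihood test over all tested genes.

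Receptor tyrosine kinases span the cell membrane, bind a growth factor outside the cell and switch on the Ras-ERK and PI3K pathways inside it. In liver, EGF receptor and MET carry the main growth signals of hepatocytes during regeneration, as known from mice and rats. FGFR4 together with beta-klotho receives the intestinal hormone FGF15, which restrains bile acid synthesis, while FGF21 is secreted by the liver itself in fasting, nutrient stress and obesity.

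Female libraries held 6763879 to 24837602 counts over genes and male libraries 11381428 to 29232871 (15.9 ± 7.53 M against 18.0 ± 6.19 M, SD, n = 6 each; 2-sided exact permutation p = 0.597). All 7 hepatocyte markers with a row stood at 2753 CPM or more in every library. Alb was called higher in females (log2 0.35, edgeR adjusted p = 0.0387, and 0.0749 without female 12), and Ttr, Serpina1 and Apoh higher in males (log2 -0.47, -0.67 and -0.24), while the other 3 were not called. Males are numbered 1 to 6 and females 7 to 13, and no batch is given, so a batch that followed the numbers and sex cannot be told apart. Male 4 and female 12 stood apart on principal components 2 and 3 (11.4% and 5.84% of the variance). Male 4 had the highest summed markers of macrophages (411 CPM, against 157 to 238 CPM in females and 95.5 to 411 CPM over all males). It also had the highest summed markers of neutrophils (295 CPM, against 3.66 to 7.83 CPM in females). Of this neutrophil sum Lcn2 alone gave 269 CPM and S100a9 gave 14.1 CPM. No pair of libraries of 1 sex agreed within sampling noise. Nothing in the labels says how animals were related, and p-values of the sex comparisons set the difference against the variation between these animals.

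The upstream sequences of the 3 members that were called and of Fgf21 are shown because they are the stretches in which control of these transcripts is usually sought. Each is the 250 bases before the annotated start of the gene in RefSeq (build GRCr8), on the gene's own strand, 5′ to 3′. Capitals mark matches to 5 letter patterns searched on both strands: TTCNNNGAA (the pattern of STAT5 sites), CACGTG (E-box), TGANTCA (AP-1), TTGCATCA (the core of the amino acid response element) and GGGCGG (GC box). Reads were aligned to another build (rn4), so these positions do not belong to the counts, and the start sites used in these livers were not measured.
Met, chr4:46784496-46784745, plus strand: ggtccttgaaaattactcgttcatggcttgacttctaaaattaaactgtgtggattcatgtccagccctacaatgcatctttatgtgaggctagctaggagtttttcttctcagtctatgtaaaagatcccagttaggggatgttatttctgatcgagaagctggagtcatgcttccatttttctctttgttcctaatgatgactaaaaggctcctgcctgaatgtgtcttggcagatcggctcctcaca
Errfi1, chr5:166606591-166606840, plus strand: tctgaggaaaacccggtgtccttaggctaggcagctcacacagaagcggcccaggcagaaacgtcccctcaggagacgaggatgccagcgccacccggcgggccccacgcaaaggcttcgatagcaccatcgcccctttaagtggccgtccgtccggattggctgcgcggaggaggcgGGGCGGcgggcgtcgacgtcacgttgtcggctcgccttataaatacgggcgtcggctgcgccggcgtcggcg
Fgfr4, chr17:9481390-9481639, minus strand: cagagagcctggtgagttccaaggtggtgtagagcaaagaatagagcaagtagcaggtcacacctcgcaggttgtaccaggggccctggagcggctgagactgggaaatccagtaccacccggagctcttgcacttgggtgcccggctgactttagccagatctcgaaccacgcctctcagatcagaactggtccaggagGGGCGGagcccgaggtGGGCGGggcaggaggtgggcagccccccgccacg
Fgf21, chr1:105221377-105221626, minus strand: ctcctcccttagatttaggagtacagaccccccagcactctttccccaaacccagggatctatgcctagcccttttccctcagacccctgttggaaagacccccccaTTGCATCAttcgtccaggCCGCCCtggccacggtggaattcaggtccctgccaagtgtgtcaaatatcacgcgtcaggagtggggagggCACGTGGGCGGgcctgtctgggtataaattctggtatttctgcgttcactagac

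The Fgf21 window held TTGCATCA from 143 to 136 bases before the start, a pattern found in 0.693% of 33469 rat windows of the same length. It also held CACGTG from 54 to 49 bases before the start (5.59% of windows), whose last base is the first base of a GGGCGG match, and a second GGGCGG match on the other strand. Fgfr4 had 2 GGGCGG matches and Errfi1 had 1, a pattern of 30.5% of windows. The windows of Errfi1 and Fgfr4 were 67.2% and 62.8% G and C, with 32 and 11 CG pairs, and that of Met was 42.0% with 3, where the median window had 51.2% and 5 CG pairs. None of the 4 windows matched TTCNNNGAA (7.67% of windows) or TGANTCA (6.34%). These are descriptions of the letters, not of binding.

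Met was the member with the widest sex difference: its transcript was 1.92-fold higher in females. Errfi1 and Fgfr4 were modestly lower in females, and Egfr, Erbb3 and Fgf21 were not called. Erbb2 had too few counts to be tested. Of the 6 tested members 1 was therefore called higher in females and 2 higher in males, 3 in all. Over the 9943 genes tested 43.2% were called, 20.5% higher in females and 22.7% higher in males, so the share of members called lies near that of all genes. Only Met showed no overlap between the sexes, a property of 22.8% of all tested genes. The median log2 fold change over all tested genes was -0.013. The same shares and median are the background for the counts given below for groups of pathway and marker genes.

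**Figure D1:**
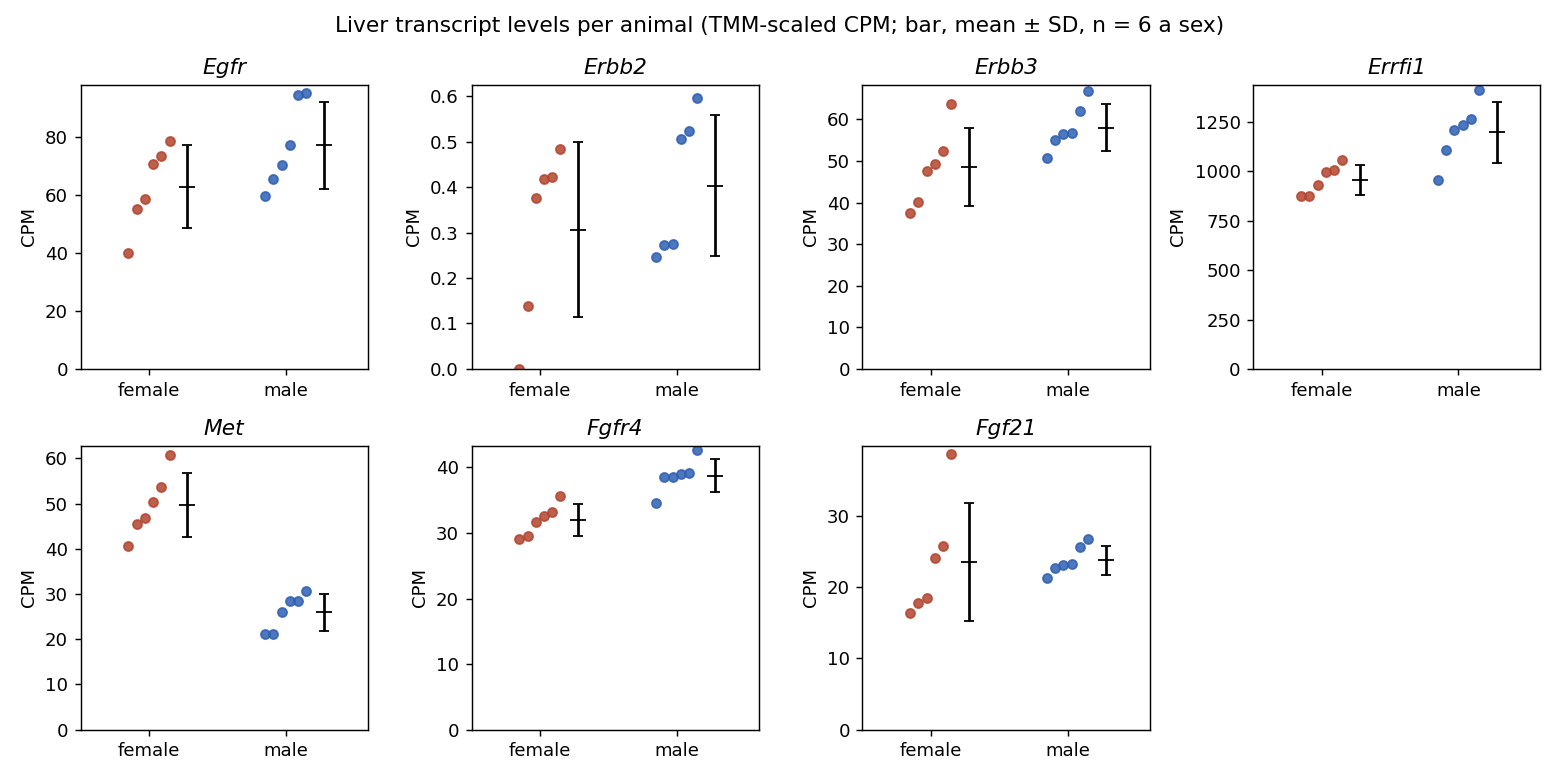
TMM-scaled CPM of the 7 receptor genes and Fgf21 axis genes with a row, 1 point per animal sorted by level, females left of males, each with mean ± SD (n = 6 a sex). Every female Met value (40.6 CPM or more) lies above every male value (30.7 CPM or less), while in the other panels the points of the sexes overlap.

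Met encodes the receptor of hepatocyte growth factor, a mitogen for hepatocytes made by the non-parenchymal cells of the liver. Met levels were 40.6, 48.6 and 60.8 CPM in females (lowest, median, highest), against 21.1, 27.1 and 30.7 CPM in males. The lowest female, female 9, thus stood above the highest male, male 1. Male 4 (21.13 CPM) lay just above the lowest male, male 2 (21.10 CPM), and female 12 (46.8 CPM) lay within the range of the other females. Means were 49.6 ± 7.06 CPM in females and 26.0 ± 4.04 CPM in males (SD, n = 6 each; log2 fold change 0.94, SE 0.112, edgeR adjusted p = 1.43e-05). This fold change was larger in size than that of 93.3% of tested genes. With each animal left out in turn the log2 fold change ran from 0.88 to 0.99.

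The ligand and the paralogue of MET differed between the sexes as well, in opposite directions. Hgf, the ligand gene, stood at 4.02, 7.19 and 10.7 CPM in females and at 2.07, 2.99 and 4.42 CPM in males, so that only female 9 lay within the range of the males. It was 2.31-fold higher in females (7.25 ± 2.17 against 3.20 ± 0.901 CPM; log2 1.21, SE 0.215, edgeR adjusted p = 0.000466). Mst1r, which encodes RON, the receptor of macrophage-stimulating protein and the closest relative of MET, had 19 counts in all females and 211 counts in all males. Its highest female value was 0.423 CPM and its lowest male value 0.941 CPM, and it was called higher in males (log2 -3.32, SE 0.512, edgeR adjusted p = 0.000144). The ratio of summed counts was 0.101 females over males, with an exact 95% interval of 0.0598 to 0.162 that covers counting error only. Mst1, the ligand gene of RON, was not called (122 CPM in females and 125 CPM in males on average).

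The group also holds the proteases that activate HGF and their inhibitors. Beside Met, 9 of its genes were tested, of which Hgf and Plat were higher in females, and Mst1r, Spint2 and Hpn were higher in males (median log2 fold change 0.04). Plat, the tissue plasminogen activator gene, was 1.54-fold higher in females (16.6 ± 1.88 against 10.7 ± 1.50 CPM, edgeR adjusted p = 0.000174). Spint2, the gene of an inhibitor of the HGF-activating proteases, was lower in females (98.2 ± 7.18 against 121 ± 16.2 CPM; log2 -0.30, edgeR adjusted p = 0.00938). Hpn, the gene of the HGF-cleaving protease hepsin, passed narrowly (log2 -0.21, edgeR adjusted p = 0.0498). Its call was lost under 17 of 22 other settings, among them every other scaling and filter, the library total covariate, and leaving out female 7, 8, 9, 10 or 12 or male 2, 4, 5 or 6 (adjusted p from 0.0330 to 0.160 over the 22). Hgfac, the HGF activator gene itself, averaged 234 ± 29.1 CPM in females and 228 ± 46.2 CPM in males and was not called (edgeR adjusted p = 0.815). Without male 4 the whole group, Met included, gave 5 genes higher in females in place of 3, because St14 and Plau, at log2 fold changes of 1.01 each, were then called.

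**Figure D2:**
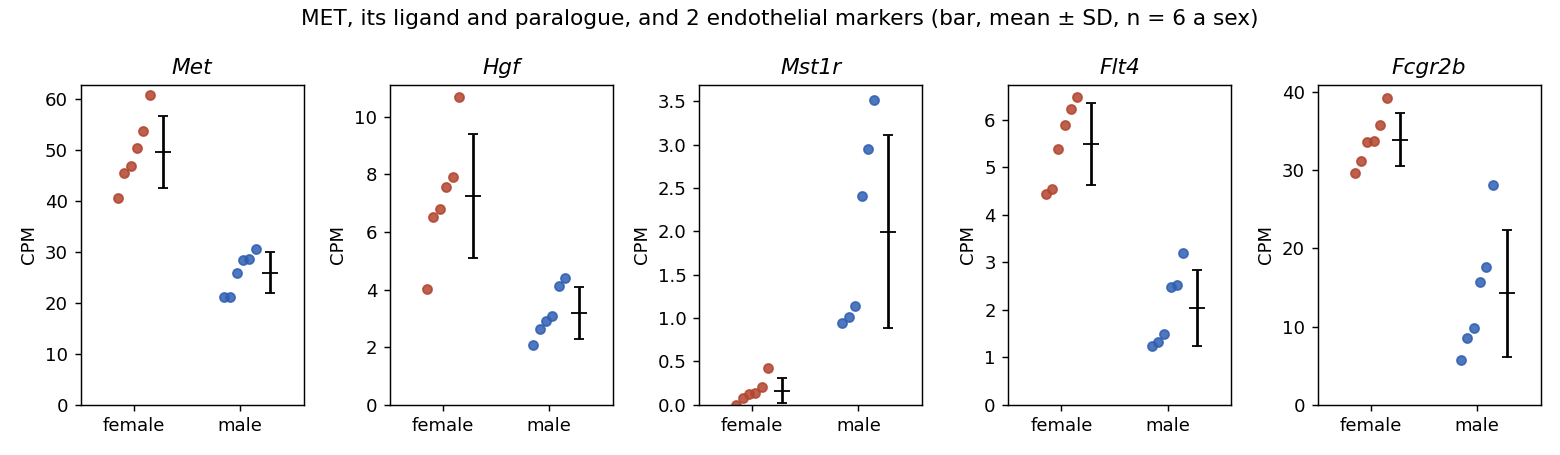
TMM-scaled CPM of Met, its ligand gene Hgf, its paralogue Mst1r and the endothelial marker genes Flt4 and Fcgr2b, 1 point per animal sorted by level, females left of males, with mean ± SD (n = 6 a sex). Hgf and both endothelial markers shown are higher in females as Met is, and Mst1r is at 0.423 CPM or less in every female.

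Hgf is known to come from stellate, endothelial and macrophage cells, and some markers of these cells were higher in females as well. Of 8 endothelial markers listed, 4 had no row. Of the 4 tested, 3 were higher in females and none in males, among them Flt4 (5.49 ± 0.856 against 2.03 ± 0.804 CPM; 2.74-fold, edgeR adjusted p = 0.000122). Pecam1, the remaining one, was not called (5.77 ± 0.591 against 5.94 ± 3.08 CPM, log2 -0.05, edgeR adjusted p = 0.891). Male 4 held 12.0 CPM of Pecam1, the other males 3.23 to 5.30 CPM and the females 5.33 to 6.91 CPM. The summed endothelial markers ranged from 76.1 to 94.5 CPM in females and from 28.1 to 76.0 CPM in males, with no marker at 0. Stellate markers gave 1 of 5 tested higher in each sex and summed to 70.8 to 96.9 CPM in females and 57.5 to 101 CPM in males. Macrophage markers gave 2 of 8 higher in females and none in males. Cd163 among them was 1.81-fold higher, a call (edgeR adjusted p = 0.0255) lost without female 8, female 12, male 1, male 3 or male 6. Without male 4 the markers Cd68, Csf1r, Vsig4, Cd5l and Emr1 were called higher in females as well. The part of these cells in the Hgf difference was not tested, and in whole liver RNA more cells of a type and more RNA per cell cannot be told apart. Bile duct markers were at low levels (summed 6.39 to 11.1 CPM in females and 6.23 to 15.1 CPM in males) and none was called.

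The genes whose pattern over the 12 animals lay closest to Met were Upf2, a factor of nonsense-mediated decay, Rest, a transcriptional repressor, and Smcr8. Their root mean square differences from Met were 0.0934, 0.124 and 0.128 on the log2 scale, where the median of 7545 candidate genes was 0.547. All 3 were higher in females without overlap, Upf2 at 6.66 ± 0.922 against 3.49 ± 0.756 CPM. The measure takes each gene's deviations from its own mean over the 12 animals and was applied to the called members only. Those deviations include the sex difference, so genes this close to a called member share its direction by selection.

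Egfr encodes the receptor for EGF and TGF-alpha. Its levels were 40.0, 64.6 and 78.4 CPM in females, against 59.6, 73.7 and 95.1 CPM in males, and the ranges overlapped between 59.6 and 78.4 CPM. Means of 62.7 ± 14.2 CPM in females and 77.0 ± 14.9 CPM in males gave a log2 fold change of -0.29 (SE 0.159, edgeR adjusted p = 0.164, not called). An interval of 2 SE either side runs from -0.61 to 0.03, which leaves room for a lower level in females or for no difference. Egfr spread widely among animals of 1 sex: its within-sex SD was 0.319 on the log2 scale, larger than that of 78.4% of tested genes.

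Among females the order of Egfr levels was the order of library totals. Female 9, the smallest library, had 40.0 CPM and female 13, the largest, 78.4 CPM. Over the 6 females Pearson's r between log2 Egfr and log2 library total was 0.958 (2-sided exact permutation p = 0.00139, adjusted over 12 relations 0.0167) and Spearman's rho was 1 (exact permutation p = 0.00278, adjusted 0.0333). Without the 2 libraries farthest from the median total r was 0.915 over 4 females. Over the 6 males the relation was not detected (r = 0.266, exact permutation p = 0.617, adjusted 0.777; rho = -0.086, exact permutation p = 0.919, adjusted 1). Among females Met (r = 0.875, exact permutation p = 0.025; rho = 0.943, exact permutation p = 0.0167) and Erbb3 (r = 0.854, exact permutation p = 0.0319; rho = 0.829, exact permutation p = 0.0583) leaned the same way, but neither passed adjustment over the 12 relations (adjusted p from 0.100 to 0.233). Their r without the 2 farthest libraries was 0.654 and 0.614. Fgfr4 in males had an r of 0.894 (exact permutation p = 0.0597, adjusted 0.179; rho = 0.6) that rested on the 2 farthest libraries and was -0.440 without them. With the log2 library total as a covariate beside sex, a fit chosen after this order was seen, the log2 fold changes were 0.97 for Met (edgeR adjusted p = 1.65e-05), -0.23 for Egfr (0.145) and -0.21 for Erbb3 (0.086), each on the same side of the threshold as without it. The fit gives both sexes a common slope, so it cannot take out a relation present in females only.

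**Figure D3:**
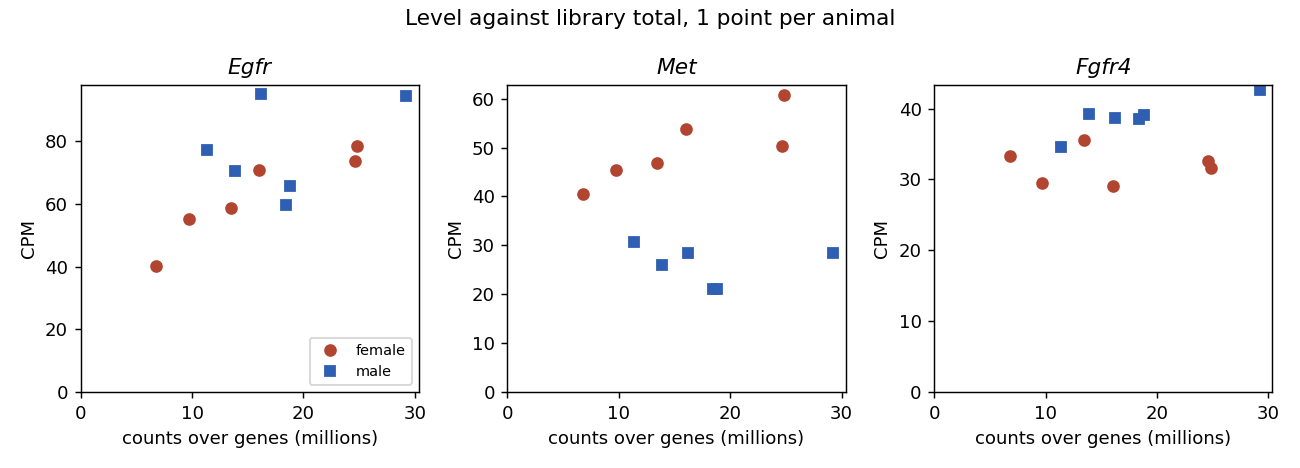
TMM-scaled CPM of Egfr, Met and Fgfr4 against the library total over genes in M counts, 1 point per animal, females as circles and males as squares. Female Egfr values climb with the library total from 40.0 to 78.4 CPM and male values show no such order, while the sexes stay apart in Met at every total.

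ERBB3 and ERBB2 are the partners with which EGF receptor forms pairs. ERBB3 binds neuregulins and has a weak kinase, and ERBB2 has no known ligand of its own. Erbb3 levels were 37.6, 48.5 and 63.7 CPM in females, against 50.7, 56.7 and 66.8 CPM in males. The sexes overlapped, with 4 of 6 females below the lowest male. The means, 48.5 ± 9.37 CPM in females and 58.0 ± 5.65 CPM in males, gave a log2 fold change of -0.25 (SE 0.111, edgeR adjusted p = 0.0822, not called), and -0.34 (adjusted p = 0.0114, called) without female 13. The interval of 2 SE runs from -0.47 to -0.03.

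Erbb2 was near the limit of detection in both sexes. It had 34 counts over the 6 females and 44 counts over the 6 males, and none in female 7. At these depths 3 counts correspond to 0.105 to 0.416 CPM, and Erbb2 levels were at most 0.485 CPM in females and 0.595 CPM in males. The ratio of summed counts was 0.870 females over males (exact 95% interval 0.539 to 1.39, counting error only). Without a filter on low counts its log2 fold change was -0.23 (edgeR adjusted p = 0.722). The fourth family member, Erbb4, had 3 counts in females and 0 in males.

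Errfi1, also known as MIG6, encodes a protein that binds the kinase domain of ERBB receptors, blocks it and promotes receptor breakdown. Its levels were 873, 963 and 1056 CPM in females, against 954, 1221 and 1410.3 CPM in males. Male 6 lay within the female range and the other 5 males lay above every female. Errfi1 averaged 956 ± 74.5 CPM in females and 1197 ± 153 CPM in males (log2 -0.32, SE 0.0912, edgeR adjusted p = 0.0101) and was called lower in females. With each animal left out the log2 fold change ran from -0.38 to -0.27 and the adjusted p from 0.00225 to 0.0272. Rps24, a ribosomal protein gene, Hmox2, the constitutive heme oxygenase gene, and Atp5i, an ATP synthase subunit gene, lay closest to its pattern (root mean square differences of 0.0744, 0.0797 and 0.0903, where the median candidate was at 0.273).

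Ratios of read counts within a library need no scaling between libraries. Because the transcripts differ in length, only their difference between the sexes is read. The Met to Egfr ratio lay between 0.685 and 1.01 in every female and between 0.300 and 0.398 in every male, with no overlap. It was 2.37-fold higher in females (difference of mean log2 ratios 1.25, 2-sided exact permutation p = 0.00216, the smallest that the assignments of 12 animals allow; adjusted over 4 ratios 0.00866). By contrast, the Errfi1 to Egfr ratio was 12.4 to 24.8 in females and 10.1 to 23.7 in males, a log2 difference of -0.0087 (exact permutation p = 0.974, adjusted 0.974). The Erbb3 to Egfr ratio differed by 0.03 on the log2 scale (0.671 to 0.938 in females, 0.596 to 0.951 in males; exact permutation p = 0.801, adjusted 0.974). The Erbb2 to Egfr ratio differed by -0.27 (exact permutation p = 0.745, adjusted 0.974), and by 0.19 without female 7, which had no Erbb2 count.

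**Figure D4:**
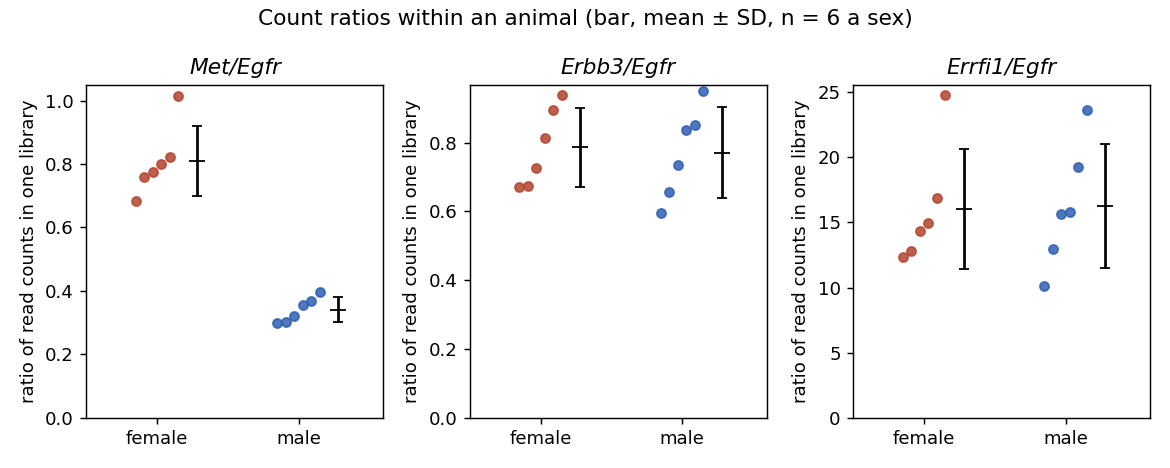
Ratio of read counts of Met, Erbb3 and Errfi1 to those of Egfr in the same library, 1 point per animal sorted by value, females left of males, with mean ± SD (n = 6 a sex). The Met to Egfr ratio is 0.685 or more in every female and 0.398 or less in every male, and the other 2 ratios overlap between the sexes.

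Ligands of the ERBB receptors were mostly at low counts in these livers. Of 11 EGF family ligand names, 9 had a row and 4 could be tested. Of these, Nrg1 was called higher in females, and Tgfa and Nrg4 higher in males (median log2 fold change -0.11). Egf, which had the most counts, averaged 30.7 ± 3.40 CPM in females and 27.6 ± 1.63 CPM in males and was not called (edgeR adjusted p = 0.109). Tgfa, the other main ligand of EGF receptor, was lower in females without overlap (8.56 ± 1.03 against 11.0 ± 0.936 CPM; log2 -0.37, edgeR adjusted p = 0.00555). The neuregulin genes, whose products bind ERBB3 or ERBB4, went different ways. Nrg1 was 1.57-fold higher in females (6.25 ± 1.28 against 3.94 ± 1.25 CPM, edgeR adjusted p = 0.0142). Nrg4 had 27 counts in females and 159 in males (log2 -2.34, SE 0.294, edgeR adjusted p = 2.29e-05; ratio of summed counts 0.191, exact 95% interval 0.122 to 0.289). Areg and Ereg had no count in any library, below the 3 counts that a count of 0 allows.

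Among 7 other tested inhibitors and ubiquitin ligases of ERBB receptors, 2 were higher in females and 1 in males (median log2 fold change 0.02). Lrig2, which encodes a membrane protein of a family that restrains receptor signalling, was 1.51-fold higher in females without overlap (14.1 ± 0.594 against 9.36 ± 1.67 CPM, edgeR adjusted p = 0.000372). Socs4 was 1.42-fold higher in females (edgeR adjusted p = 0.00252), while its relative Socs5 averaged 14.4 ± 0.942 CPM in females and 14.2 ± 1.16 CPM in males and was not called (edgeR adjusted p = 0.876). Cblc, a ubiquitin ligase gene at low counts, was lower in females (39 counts against 128 counts; log2 -1.55, edgeR adjusted p = 0.0075).

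Fgfr4, the main FGF receptor gene of hepatocytes, differed little but evenly. Its levels were 29.1, 32.1 and 35.6 CPM in females, against 34.6, 38.8 and 42.6 CPM in males. The ranges met only where female 12, the highest female, stood above male 1, the lowest male. The means were 31.9 ± 2.42 CPM in females and 38.8 ± 2.56 CPM in males (log2 -0.28, SE 0.0644, edgeR adjusted p = 0.00274). Animals of 1 sex lay close together, with a within-sex SD of 0.103 on the log2 scale, and only 13.9% of tested genes had a smaller one. Its log2 fold change ran from -0.32 to -0.25 with each animal left out. Cdc34, a ubiquitin-conjugating enzyme gene, Furin, a protease gene, and Unc50 lay closest to its pattern (root mean square differences of 0.0443, 0.0565 and 0.0644, where the median candidate was at 0.240).

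Of the 4 other tested FGF receptor genes 1 was called, Fgfrl1, a receptor without a kinase domain, which was lower in females without overlap (7.29 ± 0.832 against 10.9 ± 1.13 CPM; log2 -0.60, edgeR adjusted p = 0.000231). Fgfr2 averaged 55.7 ± 2.10 CPM in females and 52.9 ± 17.1 CPM in males (edgeR adjusted p = 0.724). Male 4 held 87.2 CPM of it and the other males 41.9 to 49.5 CPM. Without male 4, Fgfr2 (log2 0.29, edgeR adjusted p = 0.000972) and Fgfr1 (log2 0.56, adjusted p = 0.0175) were both called higher in females.

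Fgf21, the hormone gene of the set, was not called, and its SD was 8.30 CPM in females and 2.03 CPM in males. Its levels were 16.4, 21.3 and 38.7 CPM in females, against 21.2, 23.2 and 26.7 CPM in males. All male values lay inside the female range, and 3 of 6 females lay below the lowest male. The means were 23.5 CPM in females and 23.8 CPM in males (n = 6 each; log2 -0.02, SE 0.179, edgeR adjusted p = 0.930), and the interval of 2 SE runs from -0.38 to 0.33. Female 12 held the highest value of all animals, 38.7 CPM, where the other 5 females held 20.5 ± 4.18 CPM. Without it the log2 fold change was -0.23 (SE 0.115, edgeR adjusted p = 0.127), still not called. A test of the difference in spread was not run.

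Of the other FGF ligand genes only Fgf1 had counts enough to be tested (3.82 ± 0.491 CPM in females and 4.05 ± 0.673 CPM in males; edgeR adjusted p = 0.680). Fgf15, the gut hormone gene whose product acts through FGFR4, had no count in any library. Of 4 liver genes known to respond to FGF15, none was called higher in females and 2 were called lower. This count does not separate genes that FGF15 raises from genes that it lowers. Nr0b2, the gene of the repressor SHP, stood at 12.7 ± 4.61 CPM in females and 36.0 ± 16.4 CPM in males (log2 -1.48, edgeR adjusted p = 0.0077). Cyp8b1, the sterol 12-alpha-hydroxylase gene, stood at 462 ± 125 CPM in females and 743 ± 249 CPM in males (log2 -0.69, edgeR adjusted p = 0.0353), a call lost without female 7, 8, 9, 10 or 13 or without male 2, 3, 5 or 6, without a filter on low counts (0.0601) and with the library total covariate (0.0628). Slc10a1, the bile acid uptake transporter gene, was not called (586 ± 49.0 CPM in females and 566 ± 69.6 CPM in males). The bile acid synthesis gene Cyp7a1 leaned the other way from Cyp8b1 and was not called either. It stood at 107 ± 51.1 CPM in females and 69.0 ± 33.1 CPM in males (log2 0.62, edgeR adjusted p = 0.252).

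Of 13 tested genes for factors known to act on Fgf21, 4 were higher in females and 2 in males (median log2 fold change -0.02). Nr1d1, the gene of the clock repressor REV-ERB alpha, was lower in females without overlap (15.2 ± 7.21 against 44.7 ± 15.4 CPM; log2 -1.59, edgeR adjusted p = 0.00497). Thrb, a thyroid hormone receptor gene, was 1.47-fold higher in females (edgeR adjusted p = 0.00385), and Rxra, whose product pairs with PPAR-alpha, was 1.29-fold higher (adjusted p = 0.0218), a call lost at 0.0540 when male 4 and female 12 were both left out. Atf6, a sensor gene of endoplasmic reticulum stress, was 1.35-fold higher, a call (edgeR adjusted p = 0.0328) lost without female 7, female 12, male 1 or male 2 and without a filter on low counts (0.0525). Xbp1 averaged 182 ± 24.8 CPM in females and 204 ± 32.7 CPM in males (adjusted p = 0.228). Creb3l3, the other gene called higher in males (log2 -0.25, edgeR adjusted p = 0.0346), lost its call without female 7, 8, 9, 10 or 13, without male 1, 2, 3 or 6, with upper quartile factors and with the covariate. The count higher in males was 4 without female 12, when Ppara (log2 -0.59, edgeR adjusted p = 0.0271) and Ddit3 (log2 -0.56, adjusted p = 0.00768) were called as well.

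Adaptor and effector proteins pass the signal on inside the cell, and of 25 of their genes tested, 4 were called higher in females and 5 higher in males (median log2 fold change 0.08). Crk and Crkl, genes of related adaptor proteins, were 1.38-fold and 1.37-fold higher in females without overlap (edgeR adjusted p = 0.00369 and 0.000831). Hras, a Ras gene, was lower in females without overlap (25.9 ± 1.88 against 35.1 ± 1.93 CPM; log2 -0.44, edgeR adjusted p = 6.5e-05), as was Grb7, an adaptor gene, though with overlap (log2 -0.58, adjusted p = 0.00986). Of 13 tested genes that ERK signalling is known to induce or that restrain it, 3 were higher in females and none in males (median log2 fold change 0.19). These were Egr1 (2.13-fold, 2.47 ± 1.30 against 1.14 ± 0.112 CPM, edgeR adjusted p = 0.0135, and 0.0608 with limma-voom), Etv1 (1.95-fold, adjusted p = 0.0166) and Spred1 (1.54-fold, adjusted p = 0.00783). Dusp6, the ERK phosphatase gene, which had the most counts of the group, averaged 41.5 ± 8.30 CPM in females and 31.9 ± 11.3 CPM in males and was not called (adjusted p = 0.236).

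**Figure D5:**
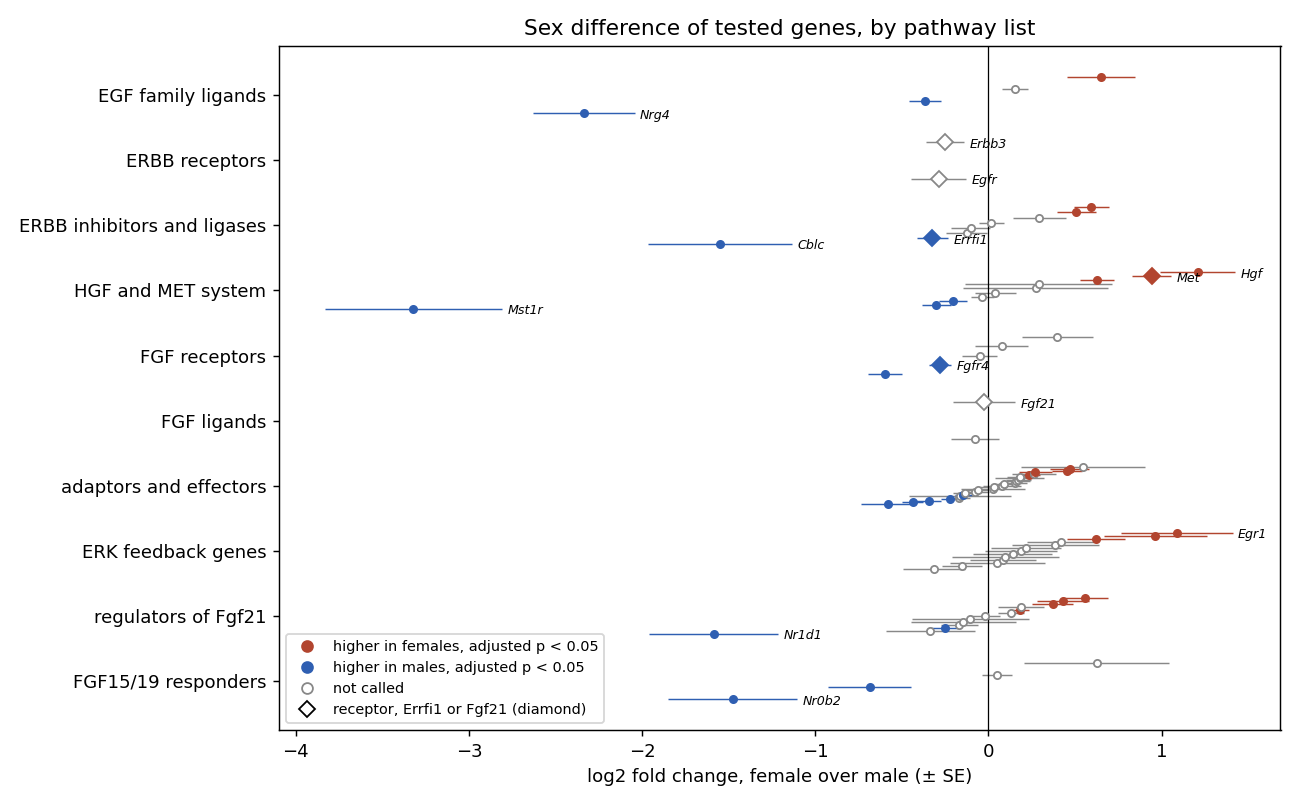
Log2 fold change, females over males, with SE for every tested gene of the 10 lists, 1 point per gene within each list. Diamonds mark the tested members (Egfr, Erbb3, Errfi1, Met, Fgfr4 and Fgf21), and circles all other genes, among them the receptor genes Mst1r and Fgfrl1. Symbols are filled red where called higher in females, filled blue where called higher in males and open where not called. Over all lists, each gene counted once, 17 of 86 tested genes were called higher in females and 18 were called higher in males. These shares lie near those over all 9943 tested genes, 20.5% higher in females and 22.7% higher in males.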

How the data were processed

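Each animal has 1 deposited file of read counts by gene symbol, whole numbers that the authors left unnormalized. The submitters' processing notes name Bowtie2 2.0.2, DESeq and the build rn4; per the labels' protocols libraries came from 1 µg of Trizol-extracted total RNA with a TruSeq kit. The counting program, annotation and strand setting are not given in the sources used here. How reads of overlapping or antisense genes were assigned is therefore not known, beyond the presence of a row of ambiguous reads. The 5 rows that name no gene (27.1% to 31.7% of counts) were left out.

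All genes were fitted together with edgeR 4.0.16 (R 4.3.3): filterByExpr (minimum count 10, minimum total 15), TMM factors, robust quasi-likelihood F test, Benjamini-Hochberg adjustment over 9943 genes. SE was computed as |log2 fold change| over the root of the F statistic. Limma 3.58.1 and DESeq2 1.42.0 were alternatives. The script was tested on simulated data. Counting intervals are exact binomial. The members and lists were chosen with earlier results of these data known. Genes named are all members, up to 4 called genes of each list by size of fold change with the uncalled one with the most counts, the 3 nearest in pattern to each called member (at least 5 CPM, prior count 2), and the leading called marker of each cell type. Genes outside this rule (Mst1, St14, Plau, Fgfr1, Ppara, Ddit3, Areg, Ereg, Erbb4, Fgf15, Fcgr2b, Pecam1, Cyp7a1, Hpn, Creb3l3, Alb, Ttr, Apoh, Lcn2, further macrophage markers) were chosen after their values were seen. Klb and the Klb to Fgfr4 ratio could not be analysed here. A gene that the rule names is not reported here.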

Additional observations from a re-analysis of the deposited data

Results flagged for a closer look

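Values were looked at for single animals far from the other 5 of their sex by Dixon's criterion at 95%. This covered 116 groups of 6 (the genes that the naming rule above gives, and the ratios), where chance gives about 1 in 20, and 9 stood apart. Male 4 was high in Fgfr2 (87.2 CPM, others 41.9 to 49.5), Plat (13.6 CPM, others 9.52 to 10.6), Hgfac (320.0 CPM, others 201 to 230.1) and the neutrophil marker S100a9 (14.1 CPM, others 0.980 to 1.75). Female 12 was high in Crkl (19.9 CPM, others 17.6 to 18.3) and Atf6 (51.0 CPM, others 36.6 to 41.2) and low in Slc10a1 (494 CPM, others 580.5 to 625). Male 6 was high in Furin (296 CPM, others 245 to 255). Female 7 was low in the log2 Erbb2 to Egfr ratio (-10.1, others -7.59 to -7.10), having no Erbb2 count. No receptor gene among the members, and not Fgf21, gave such an animal in CPM. Genes chosen after their values were seen were not part of this search, so the 9 do not cover every gene discussed. Male 4, for example, also lay far from the other males in Plau (6.53 CPM, others 1.11 to 1.59) and Pecam1 (12.0 CPM, others 3.23 to 5.30).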

How the results depend on the processing

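The calls of Met, Errfi1 and Fgfr4 kept their direction and side of the threshold under 4 other scalings, 2 other filters, DESeq2, limma-voom, a library total covariate and each animal left out; 1 member stayed higher in females and 2 (3 without female 13) higher in males. Without 1 animal, 1810 to 2389 of all genes were higher in females and 2019 to 2238 in males, and 15 to 22 and 15 to 20 of the pathway genes. Signs turned for differences near 0: the Fgf21 log2 fold change (0.0038 with upper quartile factors, 0.000976 with library totals, -0.23 to 0.0747 without 1 animal), Fgf1 (0.0088 without male 4 and female 12 together), Socs5 (-0.013 to 0.053 without 1 animal), and the log2 ratios of Errfi1 (-0.14 to 0.11, and 0.063 without male 4 and female 12 together), Erbb2 (-0.45 to 0.19) and Erbb3 (-0.037 to 0.098) to Egfr. The Met to Egfr difference ran from 1.18 to 1.29. The difference of library totals ran from -3.87 to 0.171 M counts. The cause was not tested. No paired analysis was possible because the sexes share no replicate number. Depth limits Erbb2, Mst1r and Nrg4, whose counts per library are few.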

Other observations

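Female 12, the animal with the most Fgf21, also held the highest female levels of Ppara (33.7 CPM, other females 12.7 to 18.5) and Ddit3 (29.0 CPM, others 7.88 to 11.2) and the lowest female level of the bile acid synthesis gene Cyp7a1 (29.6 CPM, others 74.6 to 165). Atf4, at 195 CPM, lay within the range of the other females (171 to 205 CPM). These genes were singled out after their values were seen, and the relation to Fgf21 was not tested. The row of ambiguous reads held 0.359% to 0.388% of all counts in females and 1.24% to 2.20% in males, with no overlap.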
